A study of Mus musculus with 16 samples.

Results

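The distal H3K27ac peaks of vehicle-treated CD8+ T cells are 1127 regions, 15.2% of the 7410 H3K27ac peaks found in those cells. They were chosen by the H3K27ac peak list itself: a member overlaps no H3K4me3 peak of either treatment and lies more than 2.5 kb from every curated RefSeq transcription start site (TSS) of mm10. The CD8+ T cells came from the spleens of OT1 mice, which carry a single transgenic T cell receptor that sees ovalbumin. Anti-CD3 and anti-CD28 activated them over 48 h, and 3 days in IL-2 followed. GSK2879552 (GSK) at 0.5 μM, which blocks the demethylase LSD1 irreversibly, or vehicle (Veh) was present throughout. Chromatin immunoprecipitation with sequencing (ChIP-seq) was done with 6 antibodies in both treatments, against H3K27ac, H3K4me3, H3K4me2, H3K4me1, LSD1 and RNA polymerase II (Pol II). Each antibody and treatment gave 1 peak list, so no spread between replicates could be measured and no p-value is given. The lists hold no read depth, and in bulk cells a weaker peak cannot be told apart from fewer cells that carry it. Intervals are 95% Wilson intervals for a share, or Newcombe intervals for a difference of shares, and cover counting error only.

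H3K27ac is an acetyl mark laid down by CBP and p300 at active promoters and enhancers. Enhancers are stretches of DNA away from the TSS that bind transcription factors and raise transcription of genes they contact, and they carry H3K4me1 and H3K4me2 with little H3K4me3. LSD1 (Kdm1a) takes methyl groups off H3K4me1 and H3K4me2, and Pol II at a distal site can mark transcription of the enhancer itself.

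H3K27ac over the members was modest. The fold enrichment, the ratio of ChIP reads to local background at a peak, ran from 1.58 to 8.65 with a median of 3.59, against 3.97 in the other 6283 Veh H3K27ac peaks. Widths ran from 175 to 2809 bp with a median of 482 bp. The peaks covered 0.666 Mb in all. Of the peaks left out, 6138 overlapped an H3K4me3 peak, and 145 had no H3K4me3 but lay within 2.5 kb of a TSS. The members nearest to that limit on the inside lay 2523 bp from Sirt3 (fold 3.25), 2527 bp from Leprotl1 (2.63) and 2544 bp from Chst11 (3.56). On the outside, peaks lay 2500 bp from Mir7235 (2.57), 2495 bp from Hemk1 (3.21) and 2485 bp from Pdcd4 (2.88). The middle of the distribution of distances was far from this limit, with quartiles of 9.59, 22.2 and 52.7 kb.

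By position, 535 members (47.5%) were centred in an intron, 28 (2.48%) in an exon and 564 (50.0%) between genes. Their sequence was that of distal DNA. Over the central 300 bp, median GC content was 47.3% and the ratio of observed to expected CpG was 0.178. In distal H3K4me1 peaks with no H3K27ac in either treatment (n = 20379, chosen by the same exclusions and called H3K4me1-only regions below) these values were 48.0% and 0.186. In the other Veh H3K27ac peaks they were 59.3% and 0.683.

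Sequences of 200 bases around the Veh LSD1 summit are shown for 6 members. These are the member with the highest Veh LSD1 value, a pair with strong LSD1 in Veh and none in GSK (near Xcr1, and next to the T cell receptor beta constant gene Trbc2), and 3 members near genes of T cell signalling. All are given for the plus strand of mm10. Capitals mark letters that match any of 9 short motifs on either strand: ETS (GGAAGT), RUNX (TGTGGTT), AP-1 (TGANTCA), TCF/LEF (CTTTGA), T-box (AGGTGT), IRF (GAAANNGAA), E-box forms CAGCTG and CAGGTG, and NF-kB (GGGANTTTC). The T-box letters and CAGGTG share 5 letters and can overlap.
2900026A02Rik, chr5:113156959-113157158, LSD1 in both treatments: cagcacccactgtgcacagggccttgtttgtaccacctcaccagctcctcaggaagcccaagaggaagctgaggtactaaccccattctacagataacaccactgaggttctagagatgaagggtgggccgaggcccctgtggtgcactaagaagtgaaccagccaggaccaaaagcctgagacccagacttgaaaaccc
Xcr1, chr9:123872077-123872276, LSD1 in Veh only: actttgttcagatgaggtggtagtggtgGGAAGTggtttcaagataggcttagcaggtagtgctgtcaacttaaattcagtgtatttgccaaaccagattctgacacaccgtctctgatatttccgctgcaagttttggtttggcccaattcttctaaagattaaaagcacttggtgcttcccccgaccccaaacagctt
Trbc2, chr6:41554383-41554582, LSD1 in Veh only: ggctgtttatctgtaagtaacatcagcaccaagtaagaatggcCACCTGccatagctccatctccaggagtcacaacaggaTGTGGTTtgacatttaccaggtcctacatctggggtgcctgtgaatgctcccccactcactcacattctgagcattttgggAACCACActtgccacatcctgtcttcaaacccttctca
Il2rb, chr15:78510805-78511004, LSD1 in both treatments: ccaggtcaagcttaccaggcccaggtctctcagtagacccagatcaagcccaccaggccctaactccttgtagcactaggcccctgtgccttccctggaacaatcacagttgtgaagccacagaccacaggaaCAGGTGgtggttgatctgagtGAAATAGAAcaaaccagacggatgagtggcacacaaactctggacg
Batf, chr12:85660630-85660829, LSD1 in both treatments: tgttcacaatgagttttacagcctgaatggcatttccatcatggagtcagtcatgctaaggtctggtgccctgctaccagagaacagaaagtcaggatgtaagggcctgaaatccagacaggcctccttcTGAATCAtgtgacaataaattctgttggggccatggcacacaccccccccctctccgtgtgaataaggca
Stat4, chr1:51934640-51934839, LSD1 in Veh only: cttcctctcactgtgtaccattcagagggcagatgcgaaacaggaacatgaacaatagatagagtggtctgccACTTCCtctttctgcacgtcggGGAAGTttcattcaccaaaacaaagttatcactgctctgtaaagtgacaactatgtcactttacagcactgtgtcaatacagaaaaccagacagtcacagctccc

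The window near Stat4 held 2 matches to the ETS letters, and the window near Xcr1 held 1. The window in Batf's upstream stretch held 1 match to AP-1, the family to which Batf itself belongs. The window at 2900026A02Rik held none of the 9. The window beside Trbc2 held 2 matches to RUNX and 1 to CAGGTG. At 2900026A02Rik, Xcr1 and Trbc2 the LSD1 summit lay outside the H3K27ac peak it was assigned to.

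Over the members in Veh cells, H3K4me1 was the most frequent of the other peaks. An H3K4me1 peak overlapped 723 members (64.2%, 61.3 to 66.9), an LSD1 peak 492 (43.7%, 40.8 to 46.6), a Pol II peak 256 (22.7%, 20.4 to 25.3) and an H3K4me2 peak 238 (21.1%, 18.8 to 23.6). With GSK the numbers were 686 for H3K4me1 (60.9%, 58.0 to 63.7), 340 for LSD1 (30.2%, 27.6 to 32.9), 199 for Pol II (17.7%, 15.5 to 20.0) and 74 for H3K4me2 (6.57%, 5.26 to 8.16). All 4 shares were lower with GSK, with differences of −3.28 points for H3K4me1, −5.06 for Pol II, −13.5 for LSD1 and −14.6 for H3K4me2. The order turned for Pol II when a peak had to cover 50% of the member (7.54% in Veh and 7.90% in GSK), and for H3K4me1 when a peak within 1 kb of the centre counted (79.3% and 80.2%). The lengths of the lists differ between treatments: H3K4me2 had 15219 peaks in Veh and 9437 in GSK, LSD1 21252 and 19919, Pol II 15638 and 15401, and H3K4me1 34387 and 40272. With both H3K4me2 lists held to their 9437 strongest peaks, the shares were 8.16% in Veh and 6.57% in GSK. With LSD1 lists of equal length they were 43.5% and 30.2%.

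**Figure D1:**
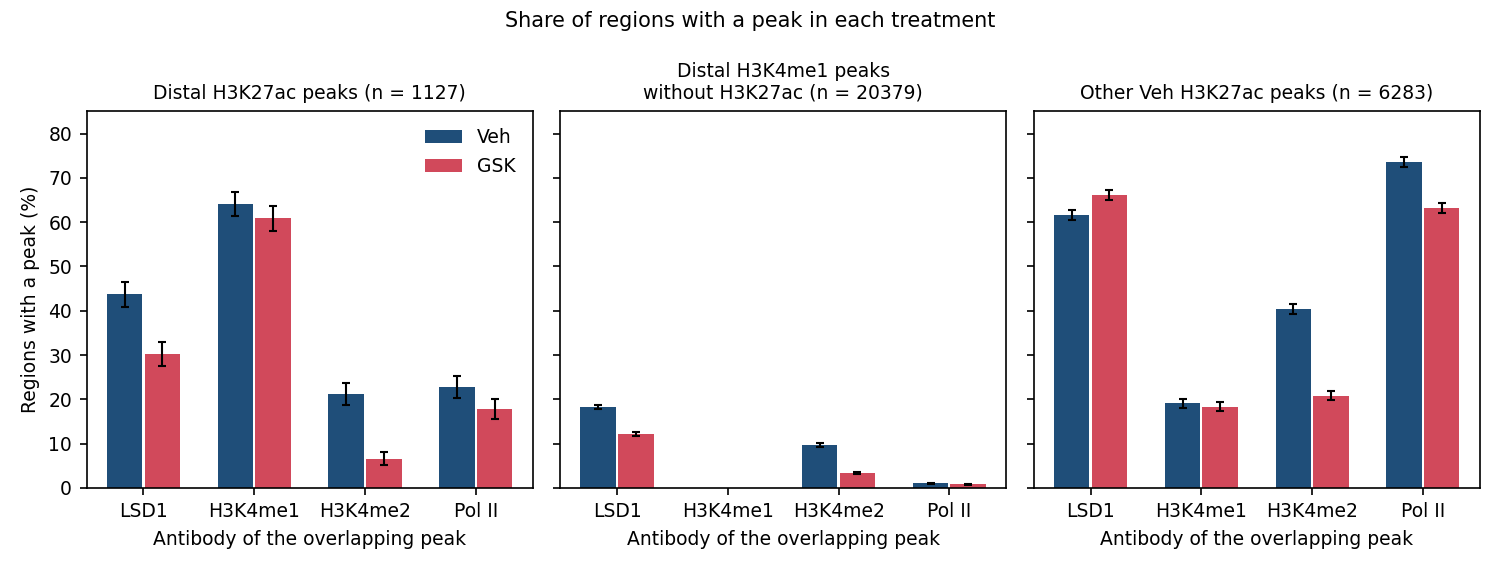
Bars give the share of regions (%) overlapped by a peak of each antibody in Veh (blue) and GSK (red), for the distal H3K27ac peaks, the distal H3K4me1 peaks without H3K27ac and the other Veh H3K27ac peaks, with 95% Wilson intervals (H3K4me1 is left out of the middle panel, which was chosen by it). LSD1 covers 43.7% of the members in Veh and 30.2% in GSK, while over the other Veh H3K27ac peaks it covers 61.6% and 66.1%.

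The members carried LSD1 and Pol II more often than distal regions marked by H3K4me1 alone. In Veh cells, LSD1 was found at 18.2% of H3K4me1-only regions, a difference of 25.5 points (22.6 to 28.4), and Pol II at 1.05% of them, a difference of 21.7 points (19.3 to 24.2). H3K4me2 was found at 9.67%, a difference of 11.4 points (9.13 to 14.0). Against the other Veh H3K27ac peaks, which are mostly at promoters, the members had LSD1 less often, with a difference of −17.9 points (−21.0 to −14.8), and Pol II less often, with −50.9 points (−53.5 to −48.1). The H3K4me1-only regions were wider (median 818 bp against 482 bp), which by itself gives a peak more bases to overlap. The samples list LSD1, H3K4me1 and H3K4me2 with the first input, and H3K4me3, H3K27ac and Pol II with the second. The methods name a pair of sequencers without assigning libraries to them. H3K27ac chose the members and H3K4me1 the H3K4me1-only regions. A difference between these sets of libraries therefore cannot be told apart from the differences given here.

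Most members with H3K4me1 lay wholly inside a wide H3K4me1 peak. The H3K4me1 peaks over members had a median width of 1916 bp and a median fold of 2.91 in Veh, against 818 bp and 4.04 for the H3K4me1-only regions. Wide peaks overlap a member more readily by construction, and no signal profile was measured, so nothing is read from this gap. Of the 723 members with H3K4me1, 550 (76.1%) lay wholly within the H3K4me1 region. The LSD1 and Pol II lists came from narrow calling, which marks a summit, whereas the H3K4me1 lists came from broad calling, which marks none. Sharpness was therefore not compared between H3K4me1 and these antibodies. The Veh LSD1 summit fell inside the member at 291 of 492 (59.1%), with a median distance of 219 bp from its centre. The Veh Pol II summit fell inside at 206 of 256 (80.5%).

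Sorted by which of H3K4me1, H3K4me2, LSD1 and Pol II overlapped in Veh, 224 members had H3K4me1 only, 208 had H3K4me1 with LSD1, and 190 had none of the 4. Another 82 had Pol II only, 75 had LSD1 only, and 79 each had H3K4me1 with H3K4me2, with and without LSD1. All 4 were present at 35 members. Those 35 were wide, with a median of 889 bp, and the 190 with none were narrow, with a median of 305 bp. LSD1 was more frequent where H3K4me1 was present, at 370 of 723 (51.2%, 47.5 to 54.8) against 122 of 404 (30.2%, 25.9 to 34.8). Pol II went the other way, at 133 of 723 with H3K4me1 (18.4%, 15.7 to 21.4) and 123 of 404 without (30.4%, 26.2 to 35.1).

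Repeated sequence moved with this Pol II difference. The central 300 bp of 96 members (8.52%) had at least 1 other copy in the genome at 95% identity or more over 90% of its length, against 1.55% of H3K4me1-only regions and 2.83% of the other Veh H3K27ac peaks. Pol II was found at 55 of these 96 in Veh (57.3%, 47.3 to 66.7) and at 60 in GSK (62.5%, 52.5 to 71.5), whereas H3K4me1 was found at 14 (14.6%) and GSK H3K27ac at 4 (4.17%). In the 1031 members with a single copy, Pol II was found at 19.5% in Veh and 13.5% in GSK, LSD1 at 45.7% and 31.2%, and H3K4me1 at 68.8% and 65.1%. The authors kept reads that mapped to a single place, so values at repeated members rest on the parts that differ between copies. What the repeats contribute to those values was not tested.

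Copied regions were among the members with the highest Veh H3K27ac −log10 p, and their other peaks differed. The strongest pair lay at chr9:3029689-3029873 (fold 7.52, −log10 p 161) and chr9:3015966-3016145 (6.26 and 62.3), nearest to Mir101c, with 96.7% and 100% of the central window masked as repeat and 13 and 27 copies in the genome. Neither had a GSK H3K27ac peak, and both had a GSK Pol II peak, with folds of 11.3 and 9.50. The former also had Pol II in Veh and no H3K4me1 peak. The latter had no Veh Pol II peak and had H3K4me1 (3.58 and 3.86) and H3K4me2 (3.96 and 3.45) in both treatments. A peak near Zxda, a zinc finger gene on the X chromosome, had 28 copies and the highest fold of all members (8.65), with LSD1 in Veh only (8.10), Pol II in GSK only (11.8) and no H3K4me1 peak. The next in rank were single-copy regions near Lrrc8d, which encodes a subunit of volume-regulated anion channels (fold 3.89 in Veh and 3.69 in GSK), in an intron of Rexo5 (5.28 and 4.90), and in an intron of Unc13a (4.73 and 5.17), whose peak lies upstream of Jak3, the kinase of the common gamma chain receptors. Members near Pisd-ps1 (2.77 and 3.77), Tbl1xr1, a corepressor subunit (4.90 and 4.44), Gm4668 (4.49 and 4.19), and in Hdac4, a class IIa histone deacetylase (4.76 and 6.22), completed the 10 highest. All 7 single-copy regions among these 10 had H3K27ac in both treatments. The one near Pisd-ps1 was among 7 members within 100 kb of a TSS of that gene. Folds in this group fell to 1.58, the lowest of all members, and the background of the stretch was not tested. H3K27ac folds of Veh and GSK are not on a common scale, with medians of 3.90 over the Veh list and 4.91 over the GSK list.

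At a short joining distance, members rarely formed clusters. Joining members at most about 13 kb apart gave 1030 loci, of which 85 held 2 or more and 12 held 3. No locus held more than 3. Over longer stretches some members were dense. Within 100 kb of a TSS, A530040E14Rik had 8 members, and Sp110 and Pisd-ps1 had 7 each. The 8 with 3 members and the highest summed −log10 p were those at Gm21119, Atp6v1g3, Map3k8 (a MAP3 kinase also called Tpl2), Arf6 (a small GTPase of membrane traffic), Kcna2 (a potassium channel), Ppp3cc (a calcineurin catalytic subunit), Gm16619, and Zfp992 with Zfp981. At Gm21119 and at Zfp992 with Zfp981 all 3 members had further copies, none had H3K4me1, and Pol II was present at 3 of 3 and 2 of 3 in Veh. At Arf6, none had further copies, H3K4me1 was present at 2 of 3 in Veh and 3 of 3 in GSK, and Pol II at none.

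With the inhibitor, LSD1 was called again at a little over 50% of the members that carried it in Veh. Of the 492 members with LSD1 in Veh, 266 also had it in GSK (54.1%, 49.6 to 58.4) and 226 did not (45.9%). Over all Veh LSD1 peaks in the genome, 45.4% had no GSK LSD1 peak, so the share over the members was near the background. These shares are counted differently. The genome share asks whether a GSK peak overlaps the Veh peak, and the member share whether one overlaps the member. The same holds for the genome shares of H3K4me1, H3K4me2 and Pol II given below. A further 74 members had LSD1 in GSK only, 11.7% of the 635 without it in Veh. The kept share was 40.1% in H3K4me1-only regions, 14.0 points below the members (9.27 to 18.6), and 81.3% in the other Veh H3K27ac peaks, from which the members differed by −27.2 points (−31.8 to −22.7).

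**Figure D2:**
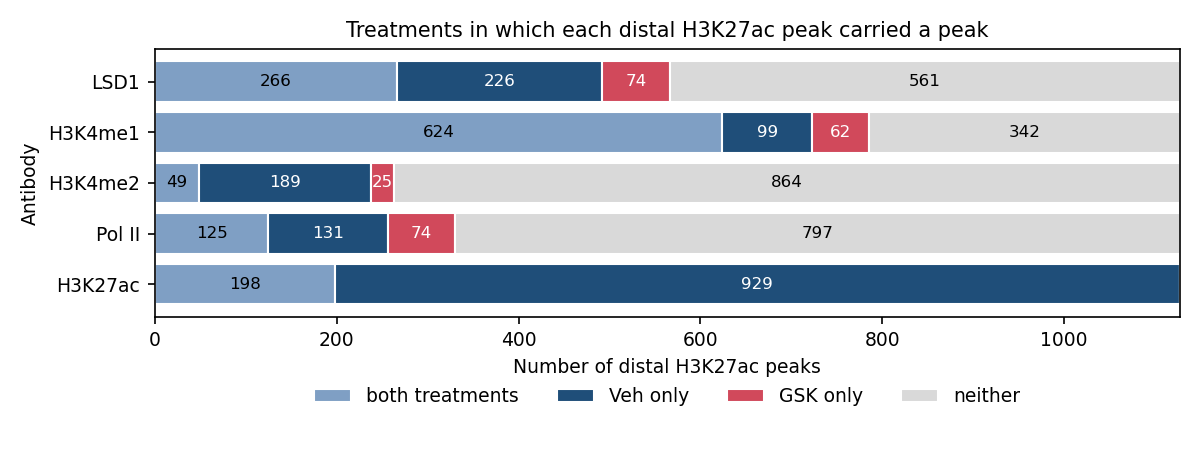
Each bar divides the 1127 distal H3K27ac peaks by whether a peak of the antibody overlapped in both treatments, in Veh only, in GSK only or in neither (number of peaks on the x axis). LSD1 was present in both at 266 and in Veh only at 226, whereas H3K4me1 was present in both at 624 and in Veh only at 99; the H3K27ac bar has no GSK-only part because the members were chosen on Veh H3K27ac.

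The strength of the Veh LSD1 peak went with whether a GSK peak was called. Members that kept LSD1 had a median Veh fold of 4.70 (−log10 p 10.3), and those with LSD1 in Veh only had 4.04 (−log10 p 7.03). When all Veh LSD1 peaks were divided into 4 groups of equal size by −log10 p, the kept share over the members was 28.9% in the weakest group (11 of 38), 37.2% (45 of 121), 50.0% (68 of 136) and 72.1% in the strongest (142 of 197). Within these groups, the members stood above H3K4me1-only regions by 10.1 points (−2.23 to 26.1), 9.95 (1.30 to 19.3), 10.5 (1.66 to 19.3) and 8.41 (1.23 to 14.9), so in the weakest group the interval included 0. They stood below the other Veh H3K27ac peaks in every group, with differences between −39.7 and −16.8 points.

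**Figure D3:**
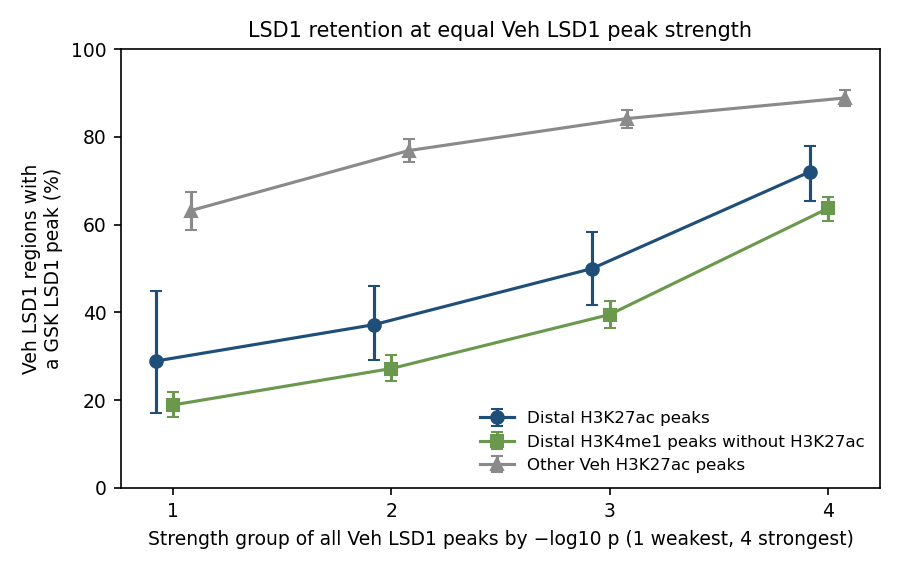
The y axis gives the share (%) of Veh LSD1 regions where LSD1 was also called in GSK, and the x axis the 4 strength groups by Veh LSD1 −log10 p, for 3 kinds of region, with 95% Wilson intervals. In the strongest group 72.1% of distal H3K27ac peaks kept LSD1, between 63.7% of distal H3K4me1 peaks without H3K27ac and 88.9% of the other Veh H3K27ac peaks.

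At kept members the LSD1 fold was lower in GSK at 159 of 266 and higher at 107. The lists differ in length, so the rank of the fold was taken within lists of 19919 peaks each, a choice made after seeing the data. That rank was lower in GSK at 168 members and higher at 98, with a median change of −6.17 percentile points (−8.96 in the lists as deposited). In H3K4me1-only regions the median change was −7.09, and over the other Veh H3K27ac peaks it was 6.20, with 1956 higher and 1150 lower. Summits of kept peaks lay a median of 85 bp apart between treatments.

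**Figure D4:**
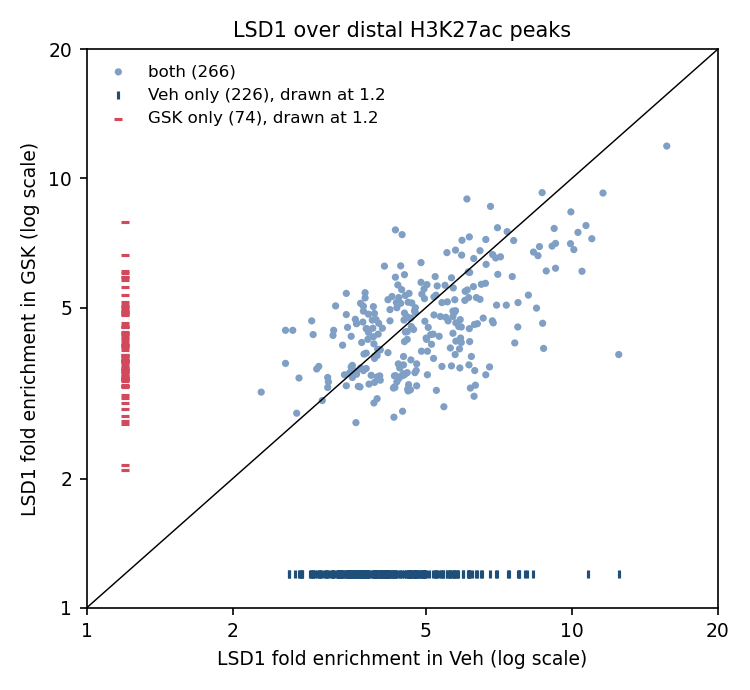
LSD1 fold enrichment in Veh (x axis) and GSK (y axis), both on log scales, for the distal H3K27ac peaks with LSD1 in both treatments (266 points), with Veh-only (226) and GSK-only (74) members drawn as ticks at 1.2 on the missing axis and the line of equal fold. Of the 266 points, 159 lie below the line, and the highest, at 15.7 in Veh and 11.9 in GSK, is the member in 2900026A02Rik.

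The kept share was close between members with and without the other peaks. It was 55.7% with Veh H3K4me1 and 49.2% without, 58.1% with Veh H3K4me2 and 52.6% without, 57.0% with Veh Pol II and 53.1% without, and 55.4% with GSK H3K27ac and 53.6% without. Each of these pairs of intervals overlapped. It was 54.2% in introns and 53.7% between genes. By distance from the TSS it was 53.8% up to 10 kb and 48.4% beyond 100 kb.

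The 5 members with the highest Veh LSD1 −log10 p were in 2900026A02Rik, at chr5:113156406-113156832 (fold 15.7 in Veh and 11.9 in GSK), near Fcho2, an endocytic adaptor (−log10 p 70.3 in Veh and 8.28 in GSK), near Gm5122 (10.3 and 7.49), in an intron of Ppp1r16b upstream of Fam83d (9.96 and 8.36), and near Nek6, a mitotic kinase (10.8 in Veh with no GSK peak). All 5 had Veh H3K4me1, and 4 kept LSD1. Besides Nek6, the strongest Veh-only LSD1 peaks were near Amz2 (fold 8.02), near the chemokine receptor gene Xcr1 (−log10 p 35.1), near Prss2 (7.39) and in Osbpl8 near Gm51266 (8.33). The member near Prss2, chr6:41552905-41554249, began 4.72 kb beyond the end of Trbc2, in the stretch before Trbv31 where the enhancer of the T cell receptor beta locus is known to lie. Its place beside Trbc2 was looked up after its values were seen. It had no H3K4me1 or H3K4me2 peak, Pol II in both treatments (fold 3.76 and 2.94) and H3K27ac in both (2.65 and 3.26). GSK-only LSD1 was strongest in Tmem266 (7.92), in an exon of Zfp473 (5.91) and near Arf6 (6.03), each with H3K4me1 in both treatments.

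H3K4me1 was mostly called in both treatments. Of the members, 624 had it in both, 99 in Veh only and 62 in GSK only. The Veh-only share of 13.7% was close to the 12.2% over all Veh H3K4me1 peaks. At the 226 members where LSD1 was called in Veh only, H3K4me1 was found in Veh only at 26 and in GSK only at 11. At the 266 that kept LSD1, these numbers were 18 and 14. In lists of 34387 peaks each, the rank of H3K4me1 fold differed by a median of −0.630 percentile points at 607 members, higher in GSK at 267 and lower at 340.

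H3K4me2 was called at few members in GSK. Of 238 with Veh H3K4me2, 49 had it in GSK (20.6%, 15.9 to 26.2) and 189 (79.4%) did not, against 44.7% of all Veh H3K4me2 peaks. A further 25 had it in GSK only. The Veh H3K4me2 peaks over members were weak, with 118 of 238 in the lowest group of the Veh list, and the kept share was 9.32% in that group and 56.0% in the highest. In H3K4me1-only regions it was 13.6% and 48.9%, and 23.7% in all, so the members differed from them by −3.11 points (−8.14 to 2.77). With lists of equal length, 33 of 92 members with Veh H3K4me2 kept it (35.9%). The unique read pairs given with the study were more numerous in Veh for H3K4me2 and LSD1, and in GSK for H3K4me1 and Pol II. With 1 library each, depth, the length of a list and the treatment cannot be told apart.

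Pol II was kept at 125 of 256 members (48.8%, 42.8 to 54.9). The Veh-only share of 51.2% was below the 60.9% over all Veh Pol II peaks, but not beyond counting error once members with further copies were left out. In H3K4me1-only regions 11.2% kept it, and in the other Veh H3K27ac peaks 78.4% did. Without the members with further copies the kept share was 41.8% (35.2 to 48.7). The strongest Veh Pol II peaks were at the member near Mir101c at chr9:3029689-3029873 (fold 11.5 in Veh and 11.3 in GSK), near Pisd-ps1 (5.24 and 5.11), in Ablim1, an actin-binding protein gene (9.71 and 4.40), far upstream of Hnf4g (9.16 with no GSK peak) and in 2700054A10Rik (5.55 and 6.07). The members in Ablim1 and near Hnf4g had no LSD1, H3K4me1 or H3K4me2 peak in either treatment.

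GSK H3K27ac was called over 198 members (17.6%, 15.5 to 19.9). The other 929 (82.4%) had none, against 64.8% of all Veh H3K27ac peaks, and nothing is read from this since Veh H3K27ac chose the members. The GSK list held 2751 peaks to the 7410 of Veh. By the read totals given with the study, the vehicle library for this mark was far deeper than the inhibitor library. The methods describe equalising read numbers by random sampling for comparisons of signal, and whether peaks were called on the equalised reads is not given in the sources used here. With both lists held to 2751 peaks, the rule gave 198 members, of which 44.9% (38.2 to 51.9) had a GSK peak. The same rule applied to the GSK list gave 247 of 2751 peaks (8.98%), and 199 of these overlapped a Veh member.

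Which members had GSK H3K27ac went with size, with the strength of Veh H3K27ac and with LSD1. The share was 4.96% in the narrowest of 4 equal groups of members and 39.0% in the widest, and Veh LSD1 also went with width, from 25.2% to 69.1%. By Veh H3K27ac −log10 p the share was 4.26% in the weakest of 4 equal groups and 40.8% in the strongest. Veh LSD1 went from 30.5% to 55.7% across the same groups. GSK H3K27ac was found at 130 of 492 members with Veh LSD1 (26.4%, 22.7 to 30.5) and at 68 of 635 without (10.7%, 8.54 to 13.4). Members with and without LSD1 were not compared at equal width or strength. The strongest GSK H3K27ac peaks were near Gm31579 (fold 4.09 in Veh and 6.34 in GSK), in Hdac4, in Adap1 (3.16 and 5.19), in Anks1 near Tcp11 (4.23 and 6.65) and near Pisd-ps1. All 5 also had LSD1 in Veh.

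Among the 9 motifs, only the TCF/LEF letters differed in frequency between members and H3K4me1-only regions beyond counting error, and by a small margin. They were found in the central 300 bp of 284 members (25.2%, 22.8 to 27.8), in 20.3% of H3K4me1-only regions, a difference of 4.89 points (2.38 to 7.56), and in 16.0% of all 32544 RefSeq promoter windows of the same length (GRCm38.p6). They were in 24.5% of members with Veh H3K4me1 and 26.5% of those without H3K4me1 or H3K4me2. By LSD1 they were in 27.1% of members that kept it, 22.1% with it in Veh only and 25.5% without it in Veh. TCF/LEF factors such as TCF-1 act in memory and progenitor T cells, and their binding was not measured here. For each of the other 8 motifs the interval of the difference from H3K4me1-only regions included 0. RUNX letters were in 135 of 1127 members, 13.5% of H3K4me1-only regions and 5.29% of promoters, and AP-1 letters in 12.9%, 14.3% and 7.79%. By LSD1, ETS letters were in 41.4% (35.6 to 47.4) of members that kept it, 32.3% (26.5 to 38.6) of those with LSD1 in Veh only and 25.5% (22.3 to 29.0) of those without it in Veh. RUNX letters followed the same order at 48 of 266, 31 of 226 and 56 of 635. ETS letters were in 30.6% of all members and 23.7% of promoters.

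Genes of the T cell lists had a member nearby more often than genes in general. At the promoters of the 8 CD8 T cell markers, all 8 had a Veh H3K4me3 peak, against 2 of 8 for B cells (Cd79b and Ebf1), 3 of 8 myeloid (Spi1, Cebpa and Cd14) and 3 of 8 erythroid. None of these 24 genes of other cells except Ms4a1 had a member within 100 kb of a TSS. Over all 26180 genes, 11.4% had one, and over the 13084 genes with a Veh H3K4me3 peak within 1 kb of a TSS, 14.7% did. Of the 143 genes in 9 lists for T cells, 78 (54.5%, 46.4 to 62.5) had one. These 78 were a small part of the 2988 genes with a member, and shared 94 of the 1127 members. The lists were drawn up with earlier results of these data known, and their genes are often neighbours, so the interval is too narrow. None of the 94 had a further copy in the genome.

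The 94 members had LSD1 at 45 in Veh and 26 in GSK, with 22 of the 45 kept (48.9%, 35.0 to 63.0), against 54.6% over the other members. H3K4me1 was at 61 in Veh and 52 in GSK, H3K4me2 at 18 and 2, and Pol II at 16 and 11. GSK H3K27ac was at 19 (20.2%, against 17.3% of the others). Each of these intervals overlapped that of the other members.

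**Figure D5:**
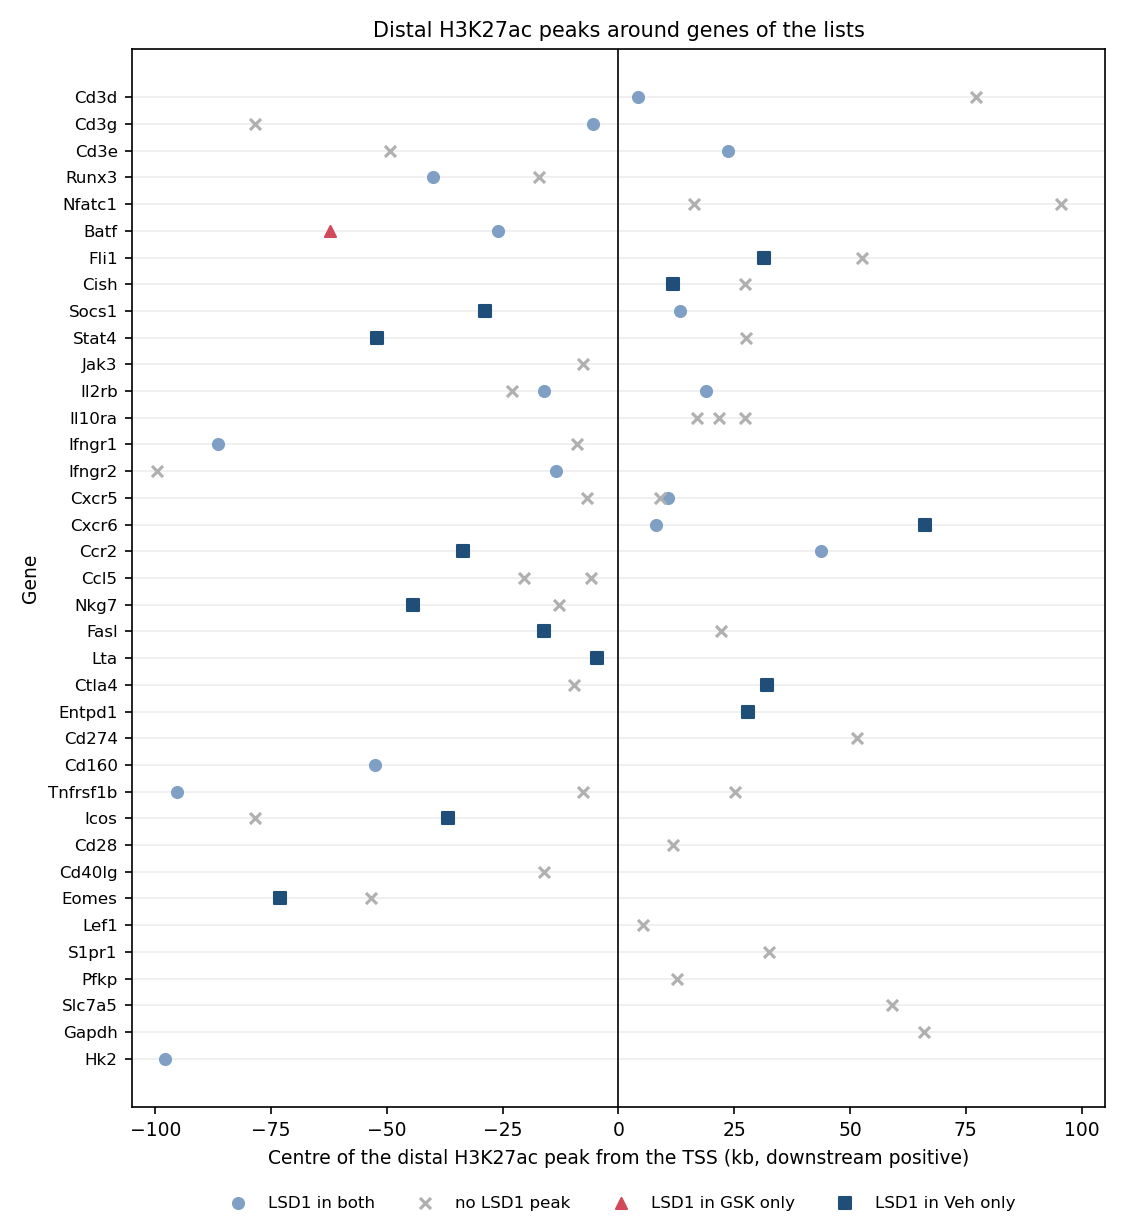
For genes with the most members in each list, the x axis gives the distance of each member's centre from the TSS (kb, downstream positive), with symbols for LSD1 in both treatments, in Veh only, in GSK only or in neither. Il10ra has 3 members at up to 27.4 kb and no LSD1 peak at any, while Socs1 has 1 member with LSD1 in both treatments and 1 in Veh only.

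Among receptor and co-receptor genes, 11 of 18 had a member. Cd3d, Cd3e and Cd3g, which encode the signalling chains of the receptor, shared the intronic member chr9:44985541-44986517, 4.24 kb downstream of the Cd3d TSS. It had no H3K4me1 peak, LSD1 folds of 2.91 and 4.66, Pol II of 3.54 and 2.87, and H3K27ac of 2.66 and 3.25. The member at −16.0 kb from the Cd8a TSS, between Cd8a and Cd8b1 in the stretch known to hold Cd8 enhancers, had Pol II in both treatments (3.36 and 2.73) and no LSD1, H3K4me1 or GSK H3K27ac peak. It was named after its values were seen.

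Of the transcription factor genes, 16 of 32 had a member. Runx3, a factor of the CD8 lineage, had members at −40.0 and −17.1 kb from its TSS, negative values being upstream. The former had LSD1 folds of 3.75 in Veh and 5.42 in GSK, and the latter had none but kept H3K27ac (3.44 and 4.03). Batf, an AP-1 factor of T cell activation, had members at −62.4 and −26.0 kb. The nearer, chr12:85660592-85660858, had an H3K27ac fold of 5.13 with LSD1 at 5.50 and 4.75, and the farther had LSD1 in GSK only (3.53). Fli1, an ETS factor, had LSD1 in Veh only at 31.5 kb (2.99). Eomes, a T-box factor, had LSD1 in Veh only at the member at −73.0 kb (4.65), which kept H3K27ac (4.28 and 5.31). Lef1 had a member at 5.32 kb with H3K4me1 in GSK only (3.20) and no LSD1. Neither member of Nfatc1 had LSD1.

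Cytokine receptor genes had the highest share of the lists, 14 of 19 (73.7%, 51.2 to 88.2). Il2rb, the beta chain of the IL-2 and IL-15 receptors, had 3. The widest, chr15:78510007-78512274, at −16.1 kb, had LSD1 folds of 5.77 in Veh and 4.18 in GSK, H3K4me1 of 2.66 and 3.02, and H3K4me2 (3.29) and Pol II (3.56) in Veh only. The 3 members downstream of Il10ra had H3K4me1 in both treatments and no LSD1. Ifngr1, an interferon gamma receptor chain, had a member at −86.5 kb with LSD1 (4.03 and 3.39), Pol II (4.08 and 3.78) and H3K27ac (3.20 and 3.59) in both. Ifngr2 had LSD1 in both at −13.5 kb (5.89 and 4.69). In the JAK-STAT and SOCS list 5 of 15 genes had a member. Stat4, which carries IL-12 signals, had LSD1 in Veh only at chr1:51934511-51935321, at −52.2 kb (5.01), where H3K4me1 was present in both (3.30 and 3.16). Socs1 and Cish, inhibitors of cytokine signalling, each had 2. Of these 4, LSD1 was in both at 1 (Socs1, 13.3 kb, 2.57 and 3.71), in Veh only at 2 and absent at 1.

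Chemokine and homing receptor genes had members at 10 of 18 and effector and cytokine genes at 9 of 18. Cxcr6 shared with Ccr9 a member in Fyco1 with LSD1 in both (6.31 and 3.57), and shared with Xcr1 the member with strong LSD1 in Veh only. Cxcr5 had 3, of which the one 10.6 kb downstream had LSD1 (3.73 and 3.90) and H3K27ac (3.31 and 4.03) in both. Ccl5, a chemokine of effector cells, had members at −5.96 and −20.3 kb with no LSD1, and the farther had H3K4me2 in both treatments (4.77 and 4.62). Over the effector list, 5 members had LSD1 in Veh and 2 of them kept it. At Fasl, Nkg7 and Lta, all products of effector lymphocytes, LSD1 was in Veh only at 1 member each (3.42, 4.99 and 5.81). The pair that kept it, named after their values were seen, lay near Gzmb, a granule protease (3.75 and 5.27), and Ifng, the gene of interferon gamma (3.90 and 4.28).

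Inhibitory receptor genes had members at 6 of 10 and costimulatory receptor genes at 6 of 11. Ctla4 and Icos, which share a locus with Cd28, shared 2. At the one 32.1 kb downstream of the Ctla4 TSS, LSD1 (4.08) and H3K4me2 (3.66) were in Veh only, and H3K4me1 (3.01 and 3.09) and H3K27ac (4.44 and 3.95) were in both. The member at −9.58 kb from Ctla4 had no LSD1 and had H3K27ac in both (3.43 and 4.27). Entpd1, the ectonucleotidase CD39, had LSD1 in Veh only in its intron (4.66). Cd160 had it in both (7.36 and 7.52) at a member at −52.6 kb, in an intron of Gpr89. Cd274, which encodes PD-L1, Cd28 and Cd40lg each had 1 member with no LSD1. Tnfrsf1b, a TNF receptor, had 3, with LSD1 at the farthest alone (4.89 and 6.37). In the memory and progenitor list 7 of 12 genes had a member, Cxcr5, Eomes, Lef1 and S1pr1 among them. In glycolysis and nutrient transport 5 of 15 had one. LSD1 was present in both treatments at −97.9 kb from Hk2 (6.02 and 5.20) and about 100 kb upstream of Slc1a5 (3.60 and 3.56). Both members lay at the edge of the 100 kb window and had another gene nearest. Slc1a5, a glutamine transporter, was named after its values were seen. LSD1 was in neither treatment at the members of Pfkp (12.6 kb), Slc7a5 (59.1 kb) and Gapdh (66.0 kb, in an intron of Chd4).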

How the data were processed

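ChIP-seq peak lists for 6 antibodies in Veh and GSK cells (12 lists) were used, and the 4 input samples, which carry no list, were not. Per the labels and the study's methods, the authors aligned uniquely mapping reads to mm10 with Bowtie2, removed duplicates and called peaks with MACS2; they also sampled libraries to equal read numbers for signal tracks. The deposited values are fold enrichment (a ratio to local background), −log10 p, −log10 q and a score; fold and −log10 p were used for strength and −log10 q for stricter lists. Distances and sequences came from GRCm38.p6 with RefSeq curated TSSs. An overlap of 1 bp counted as shared. Intervals are 95% Wilson or Newcombe. Further copies were sought with minimap2 2.31. Python 3.11.15, numpy 2.4.6, pandas 2.3.3, scipy 1.17.1 and pysam 0.24.0 were used, and the steps were tested on simulated data. Regions named were the highest in −log10 p for H3K27ac, LSD1, Pol II and GSK H3K27ac, and the loci with most members; genes named were up to 4 a list with most members within 100 kb. The members and lists were chosen with earlier results of these data known. The 6 alternatives concerned thresholds, list length, overlap and distance, 1 more left out copied members, and ranks were also taken in lists of equal length. Some items are not reported here.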

Additional observations from a re-analysis of the deposited data

How the results depend on the processing

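Of 91 values recomputed under 7 alternatives, 52 stayed within the interval of the value reported (counts within 1.5 times) and 39 did not. Shares and counts cannot change sign. The difference in kept LSD1 between members and H3K4me1-only regions could, and it stayed positive under every alternative. A limit of 5000 bp from a TSS left 1001 members and moved none of the values past those bounds. With Veh H3K27ac peaks of −log10 q of at least 5 there were 573 members, with LSD1 at 51.8% in Veh and 36.6% in GSK, Pol II at 31.4% and 23.0%, and GSK H3K27ac at 28.8%. When peaks had to cover 50% of a member, H3K4me1 was at 53.6% and 48.6%, H3K4me2 at 13.4% and 4.26%, LSD1 at 21.6% and 14.0%, Pol II at 7.54% and 7.90% (higher in GSK), and GSK H3K27ac at 9.05%. LSD1 was then kept at 44.4%, 23.2 points above H3K4me1-only regions, and Pol II at 56.5%. Counting peaks within 1 kb of the centre gave H3K4me1 at 79.3% and 80.2% (higher in GSK), H3K4me2 at 27.2% and 8.96%, LSD1 at 56.9% and 41.6%, Pol II at 25.5% and 20.9%, and LSD1 kept at 60.2%. With H3K27ac lists of equal length there were 198 members, with GSK H3K27ac at 44.9%. With H3K4me2 lists of equal length, Veh H3K4me2 was at 8.16% of the 1127 members and kept at 35.9% of those. With LSD1 and Pol II peaks of −log10 q of at least 2, GSK LSD1 was at 27.2% and Pol II at 17.2% and 12.1%. Without copied members, a choice made after seeing the data, Pol II was at 19.5% and 13.5% and kept at 41.8%, and H3K4me1 was at 68.8% and 65.1%. The causes were not tested. No paired analysis was possible because each antibody and treatment has 1 list, and the inputs that share replicate numbers carry none.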
